A study of Mus musculus with 12 samples.

Results

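The genes described here encode nuclear subunits of respiratory complexes II, III and IV and of the ATP synthase, complex V, in mouse hearts that express a dominant-negative form of the mitochondrial calcium uniporter pore subunit (DN-MCU) or in wild-type (WT) littermates. They were chosen by gene symbol. Every array gene annotated as Sdha to Sdhd, Cyc1, Atpif1, or with a symbol that begins with Uqcr, Cox4 to Cox8 or Atp5 was taken, except for 8 cytochrome oxidase genes of the families with muscle and liver isoforms. This gave 40 of the 18193 genes that have a probe set of their own: 4 for complex II, 9 for complex III, 9 for complex IV and 18 for complex V. Where a gene had several probe sets, the brightest on average over the 12 arrays was used, and values are log2 signals.

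The RNA came from whole excised hearts of outbred CD1 mice, in 4 groups of 3 arrays, each array labelled as a separate biological replicate. WT adult and DN-MCU adult hearts came from mice aged 42 days, all labelled male, and WT neonate and DN-MCU neonate hearts from mice aged 1 day, with sex labelled unknown. Age and labelled sex therefore cannot be told apart in comparisons between ages. The labels name no promoter for the construct and no line or founder. The transgene was visible on 1 probe set of Mcu, at 2.45 to 4.55 on the 6 WT arrays and 8.44 to 10.41 on the 6 DN-MCU arrays, while another Mcu probe set lay between 7.39 and 8.18 on all 12. Cardiomyocyte markers were bright on every array, with list means of 14.56 to 15.20. DN-MCU adult 3 stood apart, with a mean correlation of 0.931 to its own group and adipocyte markers at 5.24 against 7.49 and 8.63 on the other DN-MCU adults. WT adult 1 had epicardial markers at 6.75 against 4.72 and 5.11 on the other WT adults. For many results that moved without these arrays, that value is given too. With 3 arrays a group, precision is limited by how few there are.

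Complex II, succinate dehydrogenase, passes electrons from the tricarboxylic acid cycle to ubiquinone, and complex III passes them on to cytochrome c. Complex IV, cytochrome oxidase, hands them to oxygen, and the proton gradient built by complexes I, III and IV drives the ATP synthase. Heart muscle makes most of its ATP in this way, and calcium that enters mitochondria through the uniporter is known to stimulate dehydrogenases that feed the chain. All complex II subunits are encoded in the nucleus, whereas the core catalytic subunits of complex IV, the cytochrome b of complex III and some ATP synthase subunits are encoded in mitochondrial DNA and are not among the genes chosen.

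Not every gene that the symbols select is a structural subunit of the heart enzyme. Atpif1 encodes the inhibitor protein that blocks ATP hydrolysis by the ATP synthase. Cox7a2l encodes a factor that joins complexes III and IV into supercomplexes. Cox6b2, Cox7b2 and Cox8c are isoforms known from testis, and the last 2 did not pass the filter on dim probe sets, at 2.25 to 2.37 and 2.61 to 3.00 over the 12 arrays, below the level of 3.35 required of the third highest value. The other 38 were tested. They are Sdha, Sdhb, Sdhc and Sdhd of complex II. Complex III gave Cyc1, Uqcr10, Uqcr11, Uqcrb, Uqcrc1, Uqcrc2, Uqcrfs1, Uqcrh and Uqcrq. Complex IV gave Cox5a, Cox5b, Cox6b1, Cox6b2, Cox6c, Cox7a2l and Cox7c. Complex V gave Atp5a1, Atp5b, Atp5c1, Atp5d, Atp5e, Atp5g1, Atp5g2, Atp5g3, Atp5h, Atp5j, Atp5j2, Atp5k, Atp5l, Atp5md, Atp5mpl, Atp5o, Atp5pb and Atpif1. Of the 38, 33 averaged above 13 in a table whose highest value was 15.93, and whether signals this near the top of the scale are compressed was not tested.

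The stretches just before the transcription start show what these genes do and do not have in common in sequence. Promoter windows of 300 bases (250 before and 50 after the start, RefSeq, GRCm38.p6) were available for 30 of the 38 tested genes. The stretches printed are the 250 bases before the start, 5′ to 3′ on the gene's strand, which is the minus strand in each case. Atpif1 is shown as the gene that passed the DN-MCU test in adults, Sdhd as a complex II gene whose adult groups did not overlap, Uqcrfs1 as the complex III gene with the largest negative difference, and Cox6b2 as the gene with the largest difference between ages. The choice was made after their values were seen. Capitals mark matches to any of 6 motifs, searched on both strands.
Atpif1: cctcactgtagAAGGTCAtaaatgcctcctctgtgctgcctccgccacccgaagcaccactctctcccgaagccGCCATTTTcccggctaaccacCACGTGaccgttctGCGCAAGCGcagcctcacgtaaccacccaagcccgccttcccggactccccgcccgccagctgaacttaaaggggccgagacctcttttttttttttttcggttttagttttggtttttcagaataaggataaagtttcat
Sdhd: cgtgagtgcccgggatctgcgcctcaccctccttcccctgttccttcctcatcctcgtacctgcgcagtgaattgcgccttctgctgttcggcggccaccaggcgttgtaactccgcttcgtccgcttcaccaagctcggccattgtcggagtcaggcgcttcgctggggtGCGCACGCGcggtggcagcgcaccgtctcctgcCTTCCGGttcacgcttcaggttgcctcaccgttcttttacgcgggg
Uqcrfs1: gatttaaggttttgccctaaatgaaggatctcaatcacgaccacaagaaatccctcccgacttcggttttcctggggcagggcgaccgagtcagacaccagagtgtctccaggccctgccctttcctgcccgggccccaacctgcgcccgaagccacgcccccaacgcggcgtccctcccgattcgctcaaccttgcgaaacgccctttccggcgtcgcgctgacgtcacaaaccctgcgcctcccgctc
Cox6b2: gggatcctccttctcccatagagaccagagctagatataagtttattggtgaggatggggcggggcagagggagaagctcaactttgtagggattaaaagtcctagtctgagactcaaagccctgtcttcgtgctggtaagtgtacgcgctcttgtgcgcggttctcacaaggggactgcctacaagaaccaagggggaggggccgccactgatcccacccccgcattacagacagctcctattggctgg

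These stretches lie at chr4:132535415-132535664 for Atpif1, chr9:50603850-50604099 for Sdhd, chr13:30545317-30545566 for Uqcrfs1 and chr7:4753095-4753344 for Cox6b2. RefSeq annotates the Atpif1 gene up to position 132535450, so the last bases of its stretch lie inside the annotated gene. Distances for Atpif1 are counted from the start used for its promoter window. The Atpif1 stretch held 4 matches: AAGGTCA, the site of ERR nuclear receptors, at 239 to 233 bases before the start, AANATGGC (YY1) at 176 to 169, the E-box CACGTG at 155 to 150, and the NRF1 core GCGCANGCG at 141 to 133. None of these 4 overlaps another. The Sdhd stretch held the NRF1 core at 79 to 71 bases before the start and CCGGAAG, the core bound by ETS factors such as GABPA, at 46 to 40, here read on the opposite strand. Its AAGGTCA match lies outside the stretch printed. The stretches of Uqcrfs1 and Cox6b2 held 0 matches. Among the 30 windows, 12 (40%) held the NRF1 core, as did 11.5% of windows of the 14369 genes on the array that have one and 6.25% of all windows in the table. CCGGAAG was in 11 windows (36.7%, against 15% of genes on the array and 8.86% of all windows), and AAGGTCA was in 6 (20%, against 4.61% and 4.72%). AANATGGC was in 5 (16.7%, against 8.09% and 6.05%), as was CACGTG (16.7%, against 10.3% and 7.15%). TGATGNAA, the composite element read by ATF4 and its partners, was in 0 of the 30, against 3.24% of genes on the array and 3.97% of all windows. A match is a description of the letters in this window, and these shares were not tested.

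In adult hearts, 31 of the 38 genes lay below WT in DN-MCU, but by little: the median difference was -0.10 (DN-MCU minus WT), beside 0.00 over all 11804 genes tested. Atpif1 was 1.57-fold higher and was the only one of the 38 to pass the test (limma with Benjamini-Hochberg adjustment over all probe sets tested, adjusted p under 0.05). The share of genes that passed as higher was 3.41% over all genes, so 1 of 38 (2.63%) is near that background. For lower genes the background was 1.69%, and 0 of 38 passed. At an unadjusted p under 0.05, 7 of the 38 (18.4%) were counted, near the 19.5% of all genes. Cox6b2, dim in adults, is among these 7 only as a description. By complex, the median furthest from 0 was that of complex II, where all 4 genes lay below 0 with a median of -0.37. The largest single differences were in other complexes, and no test compared the complexes. All 9 complex III genes were below 0, with a median of -0.15, as were 15 of the 18 complex V genes, with a median of -0.10. In complex IV, 3 of 7 were below 0 and the median was 0.01. In RNA from whole hearts, fewer cells of a type and less RNA per cell cannot be told apart.

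**Figure D1:**
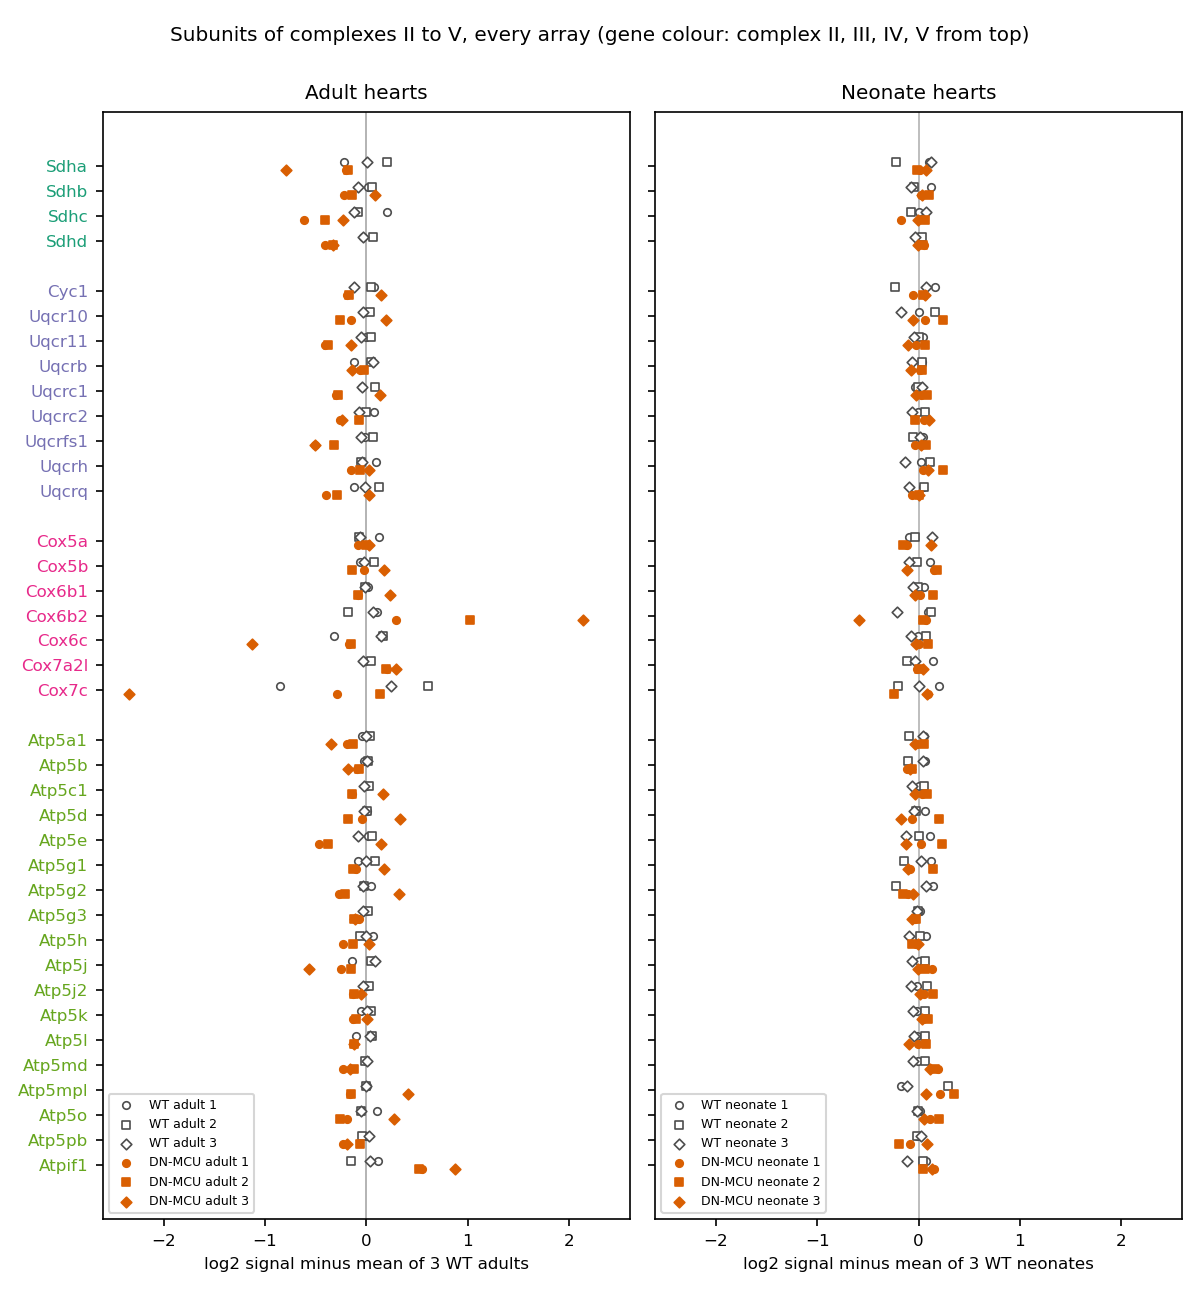
Log2 signal of each of the 38 tested genes on each array, minus the mean of the 3 WT arrays of the same age, for adult hearts (left) and neonatal hearts (right). Open grey points are WT arrays and filled orange points DN-MCU arrays, with the shape giving the replicate. In adults Atpif1 lies to the right and the complex II genes mostly to the left of WT, and DN-MCU adult 3 (orange diamonds) departs from the other DN-MCU adults for Cox6b2, Cox6c and Cox7c.

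Taken array by array, 35 of the 38 genes lay below the WT adult mean on DN-MCU adult 1, 34 on DN-MCU adult 2 and 17 on DN-MCU adult 3. The mean over the 4 complex II genes was below the WT adults on all 3, by -0.36, -0.26 and -0.32, whereas the WT adults lay between -0.06 and 0.06 around their own mean. For complex III the 3 DN-MCU adults were at -0.27, -0.20 and -0.05, and for complex V at -0.14, -0.11 and 0.06. The complex II mean was thus of similar size on each DN-MCU adult, while for complexes III and V it was smaller on DN-MCU adult 3. The complex II genes did not move evenly behind that mean. On DN-MCU adult 3, Sdha was the lowest of all adult arrays at 12.80 and Sdhb the highest at 14.63. In 12 of the 38 genes, every DN-MCU adult lay below every WT adult (31.6%), against a background of 8.14% of all genes. They are Sdhc, Sdhd, Uqcr11, Uqcrfs1, Atp5a1, Atp5b, Atp5g3, Atp5j, Atp5j2, Atp5l, Atp5md and Atp5pb. Every DN-MCU adult lay above every WT adult in Cox6b2, Cox7a2l and Atpif1, 3 of 38 (7.89%) against 10.3%. Cox6b2 is counted only as a description, since all WT adults and DN-MCU adult 1 lay under the filter level. Without WT adult 1 and DN-MCU adult 3, 34 of the 38 were below 0, the median was -0.15, and 32 did not overlap as lower, where 27.9% of all genes do with 2 arrays a group. The 38 signals are bright and vary little: the median SD of a gene was 0.07 over the WT adults and 0.16 over the DN-MCU adults, against 0.21 and 0.40 over all genes. The part that brightness plays in these counts was not tested.

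Cell type markers on the adult arrays are given beside these counts. Over the 10 cardiomyocyte markers the array means were 15.05 to 15.20 in WT and 14.94 to 15.08 in DN-MCU adults, 0 of 10 passed, and the median difference was -0.10, the same as that of the 38 genes to 2 decimals. For the 8 endothelial markers the means were 9.25 to 9.41 in WT and 8.99 to 9.42 in DN-MCU adults, and for the 8 fibroblast markers 11.30 to 11.72 and 10.92 to 11.94, with 0 passing in either list. The 6 adipocyte markers on the array, of which Lep was dim with a mean of 2.11 over all arrays, spanned 7.03 to 8.06 in WT and 5.24 to 8.63 in DN-MCU adults, with a median difference of -0.54 over the 4 tested. For the 7 epicardial and mesothelial markers the means were 4.72 to 6.75 and 5.06 to 5.41, with a median difference of -0.42 and 0 passing. Of 6 smooth muscle and pericyte markers 1 passed as higher, where 3.41% of all genes did. Their means were 10.35 to 10.87 in WT and 10.67 to 11.08 in DN-MCU adults, with a median difference of 0.10. The 5 atrial markers, with means of 12.21 to 12.23 in WT and 11.90 to 11.93 in DN-MCU adults, did not overlap, although 0 of 5 passed and their median difference was -0.03. The part of these markers in the differences of the 38 genes was not tested.

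Complex II was described gene by gene because each of its subunits is nuclear. Sdhd, a membrane anchor subunit, was at 13.26, 13.36 and 13.26 on the 3 WT adults and 12.88, 12.97 and 12.96 on the 3 DN-MCU adults. These groups were close within themselves and did not overlap. The difference was -0.36 (SE 0.11, 3 against 3 arrays), which did not pass (limma adjusted p = 0.0976). It passed under 3 of 18 alternative settings (no filter on dim probe sets, a trended robust spread, and without WT adult 1 and DN-MCU adult 3), with adjusted p between 0.00327 and 0.482. Another Sdhd probe set was at -0.29. Sdhc, the other membrane anchor, was at 12.61, 12.33 and 12.28 in WT adults and 11.79, 11.9965 and 12.17 in DN-MCU adults, again without overlap. Its difference was -0.42 (SE 0.15, limma adjusted p = 0.154). It passed only without DN-MCU adult 3, at -0.51 and an adjusted p of 0.0499, over a range of 0.0499 to 0.525.

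Sdha, the flavoprotein that oxidises succinate, was at 13.37, 13.79 and 13.60 in WT and 13.39, 13.41 and 12.80 in DN-MCU adults. The lowest WT adult lay just under the DN-MCU adults 1 and 2, so the groups overlapped. The difference was -0.39 (SE 0.19, limma adjusted p = 0.321), and it was -0.79 with an adjusted p of 0.0306 when all Sdha probe sets were averaged, which brings in a dim one (mean 3.14) at -1.51, while the other bright one was at -0.47. The adjusted p lay in a range of 0.0306 to 0.671 over 18 alternatives. Without DN-MCU adult 3, the lowest of the 6, it was -0.19. Sdhb, the iron-sulfur subunit, was at 14.56, 14.60 and 14.47 in WT and 14.33, 14.40 and 14.63 in DN-MCU adults. The DN-MCU adults lay on either side of the WT adults, with a difference of -0.09 (SE 0.13). Without DN-MCU adult 3, the difference of Sdhb was -0.18. In neonates the differences of these 4 genes ran from -0.04 for Sdhc to 0.06 for Sdhb. The genotypes overlapped in each of them at this age. Sdhb was at 14.11, 13.94 and 13.91 in WT and 14.01, 14.09 and 14.02 in DN-MCU neonates. Sdhc was at 12.31, 12.23 and 12.38 in WT and 12.14, 12.37 and 12.30 in DN-MCU neonates. Sdhd was at 13.26, 13.29 and 13.22 in WT and 13.31, 13.30 and 13.25 in DN-MCU neonates.

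In complex III, Uqcrfs1, the Rieske iron-sulfur protein of the ubiquinol oxidation site, had the largest difference. It was at 14.28, 14.36 and 14.24 in WT and 13.79, 13.98 and 13.79 in DN-MCU adults. All DN-MCU adults lay below all WT adults. The neonatal arrays were at 13.86, 13.76 and 13.83 in WT and 13.78, 13.89 and 13.84 in DN-MCU hearts, a range that held DN-MCU adults 1 and 3, with DN-MCU adult 2 above it. The adult difference was -0.44 (SE 0.11), 1.36-fold lower, with a limma adjusted p of 0.0569 that missed the threshold. Under 18 alternatives the difference ranged from -0.50 to -0.41, and its adjusted p was under 0.05 in 9 of them, with a range of 0.00602 to 0.395. Among the alternatives in which it passed were those without DN-MCU adult 2 (adjusted p = 0.0370) and without DN-MCU adult 3 (0.0460).

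Cyc1, the haem subunit that reduces cytochrome c, was at 14.24, 14.22 and 14.05 in WT and 13.98, 14.01 and 14.32 in DN-MCU adults. These groups overlapped, with DN-MCU adult 3 the highest of all 6 and a difference of -0.07 (SE 0.15). Without that array the difference was -0.18. Uqcrh, the hinge protein, was at 14.18, 14.03 and 14.04 in WT and 13.93, 14.02 and 14.11 in DN-MCU adults, a difference of -0.06 (SE 0.13) and the smallest of complex III in size. The other 6 genes of complex III ranged from -0.31 for Uqcr11 to -0.07 for Uqcrb, and none passed. Without DN-MCU adult 3 they ranged from -0.39 for Uqcr11 to -0.04 for Uqcrb, and Uqcrc1 went from -0.15 to -0.29. Uqcr11 passed without DN-MCU adult 3, and also without that array and WT adult 1, as did Uqcrq in the latter case. These 2 were singled out after their values were seen.

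In complex IV the chosen genes lay on both sides of 0 when all arrays were used. Cox5a, Cox5b and Cox6b1, subunits of the heart enzyme, were at -0.02, 0.01 and 0.02 (DN-MCU minus WT, adult; SE 0.13 to 0.14). Without DN-MCU adult 3 these were at -0.04, -0.08 and -0.08. Cox7a2l was at 0.23 (SE 0.12, limma adjusted p = 0.328) and at 0.20 without DN-MCU adult 3. Its groups did not overlap, from 12.45 to 12.52 in WT and 12.68 to 12.77 in DN-MCU adults. Its probe set is of the kind that can match related transcripts. Cox6c had a difference of -0.48 (SE 0.25) and was lowest on DN-MCU adult 3, at 13.42, where the other DN-MCU adults were at 14.38 and 14.40 and the WT adults at 14.24, 14.71 and 14.70. Without DN-MCU adult 3 it was -0.16. The values for Cox7c were 5.17, 6.63 and 6.26 in WT and 5.73, 6.15 and 3.68 in DN-MCU adults. This probe set is dim and scattered, and its difference of -0.83 had an SE of 0.56. Without DN-MCU adult 3 the difference was -0.077.

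Cox6b2 had the largest positive difference of complex IV. It was at 2.73, 2.44 and 2.69 in WT adults, all under the level of 3.35 used as the filter, and at 2.92, 3.64 and 4.76 in DN-MCU adults. The groups did not overlap, but the DN-MCU adults were spread over 1.84 log2 units, with DN-MCU adult 3 the highest. The gene passed the filter only through the neonatal arrays, so the WT adult level is a bound. With WT adult arrays raised to the filter level, the adult difference was at least 0.42 (at least 1.34-fold) from the DN-MCU mean of 3.77, and the measured WT mean was 2.62. No test is given for it.

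Complex V held the only gene that passed, Atpif1. It was at 12.76, 12.49 and 12.68 in WT and 13.19, 13.16 and 13.51 in DN-MCU adults, and at 14.14, 14.10 and 13.95 in WT neonates and 14.22, 14.11 and 14.19 in DN-MCU neonates. DN-MCU adults thus lay between the WT adults and the neonates, with no overlap on either side. The adult mean was 12.64 ± 0.14 in WT and 13.29 ± 0.20 in DN-MCU (SD, n = 3 each). The difference was 0.65 (SE 0.14), or 1.57-fold, with a limma adjusted p of 0.0245. It was positive under all 18 alternatives, at 0.45 to 0.71, and passed in 11 of them, with adjusted p between 0.00672 and 0.277. The call was lost when only the adults were fitted (0.277), with the replicate number as a block (0.101), with that block in neonates only (0.0746), with array medians subtracted (0.0827), with probe sets averaged (0.158), without WT adult 2 (0.107) and without WT adult 3 (0.0763). Its other tested probe set was dim, with a mean of 3.42, and had a difference of 0.26.

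**Figure D2:**
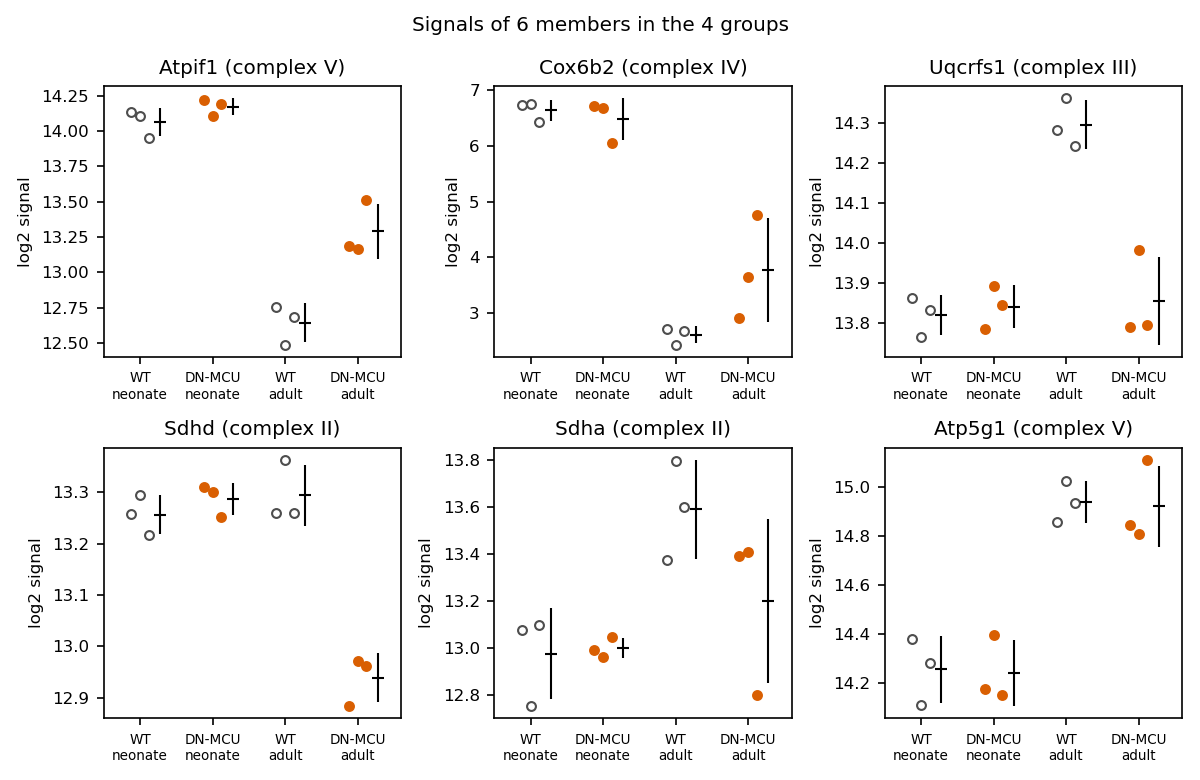
Log2 signal of Atpif1, Cox6b2, Uqcrfs1, Sdhd, Sdha and Atp5g1 on every array in the 4 groups. Points are arrays (open, WT; filled, DN-MCU), and the bar beside each group gives mean and SD of 3 arrays. The vertical axes differ between panels and do not start at 0. Atpif1 in DN-MCU adults lies between WT adults and neonates, Uqcrfs1 in DN-MCU adults lies below all WT adults and near the neonates, and Atp5g1 is alike in both genotypes at each age.

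The catalytic and stalk subunits of the ATP synthase showed much smaller differences. Atp5a1 and Atp5b, the alpha and beta subunits of the catalytic head, were at -0.22 and -0.11 (SE 0.12 and 0.11), each without overlap between the groups. Atp5j, the coupling factor of the peripheral stalk, had the largest negative difference of complex V. It was at 13.88, 14.07 and 14.10 in WT and 13.76, 13.87 and 13.45 in DN-MCU adults, with a difference of -0.32 (SE 0.14, limma adjusted p = 0.252). Its groups were separated by only a narrow gap, and without DN-MCU adult 3, the lowest, the difference was -0.20. The genes for the ring of c subunits, Atp5g1, Atp5g2 and Atp5g3, which carries protons through the membrane, were at -0.02, -0.05 and -0.10. Without DN-MCU adult 3 they were at -0.11, -0.24 and -0.10. The other 11 genes, not counting Atpif1, ranged from -0.23 for Atp5e to 0.04 for Atp5d, and none passed. Without DN-MCU adult 3 these 11 ranged from -0.42 for Atp5e (limma adjusted p = 0.0840) to -0.11 for Atp5d, and none passed. Atp5mpl went from 0.04 to -0.15 and Atp5o from -0.06 to -0.23.

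**Figure D3:**
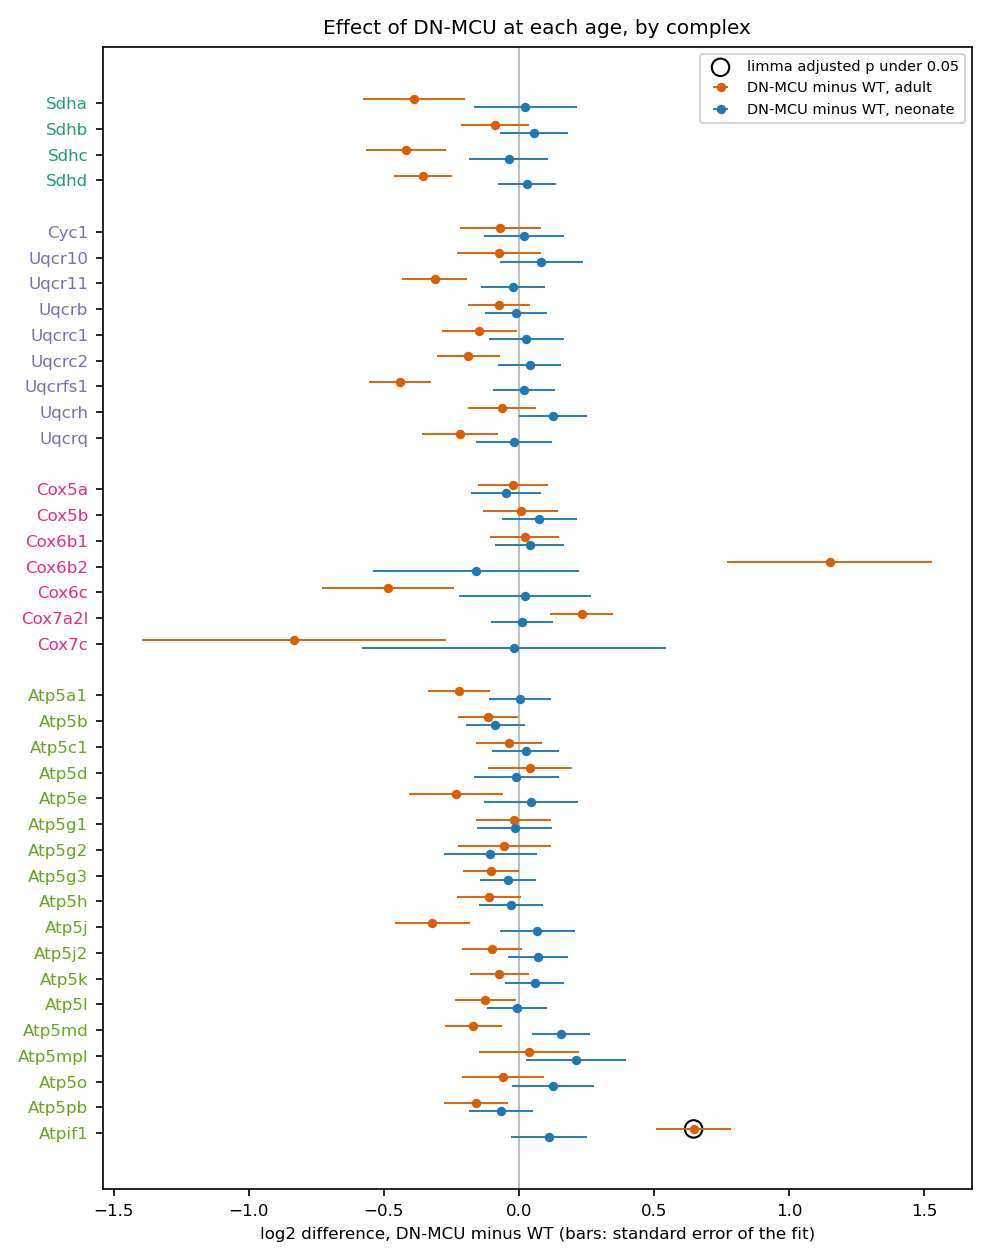
Difference between DN-MCU and WT (log2, horizontal axis) for each of the 38 genes in adults (orange) and neonates (blue), with bars of 1 standard error from the limma fit. A ring marks the only difference with an adjusted p under 0.05, Atpif1 in adults at 0.65. The neonatal values lie between -0.16 and 0.21.

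In neonatal hearts none of the 38 genes passed, with an adjusted p of 0.9999 for each (limma). At an unadjusted p under 0.05, 0 of the 38 were counted, where 2.41% of all genes were. The background of adjusted calls was small too, at 0.0169% of all genes as higher and 0.00847% as lower. The median difference was 0.02, beside 0.03 over all genes, and the differences ran from -0.16 for Cox6b2 to 0.21 for Atp5mpl. By complex the medians were 0.03, 0.02, 0.01 and 0.02 for complexes II, III, IV and V. Atpif1 was 14.06 ± 0.10 in WT and 14.17 ± 0.06 in DN-MCU neonates (SD, n = 3 each), a difference of 0.11 (SE 0.14). Its neonatal groups overlapped. Uqcrh was at 14.24, 14.34 and 14.08 in WT and 14.27, 14.46 and 14.31 in DN-MCU neonates. Cox7c was at 6.64, 6.24 and 6.44 in WT and 6.54, 6.20 and 6.53 in DN-MCU neonates. Atp5j was at 13.92, 13.98 and 13.86 in WT and 14.06, 13.99 and 13.92 in DN-MCU neonates. In each of these 3 the genotypes overlapped. Every DN-MCU neonate lay above every WT neonate in 2 genes, Atp5md and Atp5o, against a background of 9.13%, and below in 1, Atp5g3, against 4.77%. With array medians subtracted, which moved the median of all probe sets by -0.039, 9 of the 38 changed sign and 24 rather than 15 lay below 0. Some marker means were lower in DN-MCU than in WT neonates without overlap. They were atrial (10.96 to 11.94 against 12.05 to 12.34), epicardial and mesothelial (6.57 to 6.89 against 7.23 to 8.01), macrophage (7.15 to 7.52 against 7.57 to 7.71) and erythroid (5.14 to 5.48 against 5.51 to 6.11). Means of the other lists overlapped, and no marker passed. Their part in these values was not tested.

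Whether the effect of DN-MCU differed between adults and neonates was tested directly in the same fit. None of the 38 differences of effects passed (limma, smallest adjusted p = 0.350, for Uqcrfs1), and 4 (10.5%) were counted at an unadjusted p under 0.05, near the 9.82% of all genes. Cox6b2 is among these 4 only as a description. For adjusted calls the background was 0.712% of all genes with a more positive effect in adults and 0.237% with a more negative one. The median difference of effects was -0.15, beside -0.03 over all genes, and 32 of 38 were below 0 (29 with array medians subtracted). Leaving out Cox6b2, whose WT adult level is a bound, the largest in size were -0.81 (SE 0.79) for Cox7c, 0.54 (SE 0.20, limma adjusted p = 0.382) for Atpif1, -0.51 (SE 0.35) for Cox6c and -0.46 (SE 0.16) for Uqcrfs1. Without DN-MCU adult 3 these were -0.058, 0.42, -0.18 and -0.43. An effect in adults that differs from that in neonates was therefore not shown for any of them.

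The change between birth and adulthood sets a scale for these differences. In WT hearts 10 of the 38 genes were higher in adults than in neonates (26.3%, against a background of 17.2%), and 2 were lower (5.26%, against 27.8%). The median of the 38 was 0.20 (adult minus neonate), where that of all genes was -0.16. In DN-MCU hearts 8 were higher (21.1%, against 17.6%) and 3 lower (7.89%, against 29.1%), with a median of 0.05, beside -0.17 over all genes. Of probe sets that passed, 45.8% were higher in adults in the WT comparison and 44.1% in the DN-MCU comparison, and with array medians subtracted these shares were 59.9% and 62.1%. That subtraction moved the median of all probe sets by 0.22 in WT and 0.28 in DN-MCU hearts. It turned the sign of Atp5mpl, Cox5a and Uqcrh in WT hearts, and of 8 genes in DN-MCU hearts, none of which had passed. Marker means also differed between ages. In WT hearts cardiomyocyte means were 14.63 to 14.67 in neonates and 15.05 to 15.20 in adults. Fibroblast means were 12.40 to 12.64 and 11.30 to 11.72, adipocyte means 4.23 to 4.29 and 7.03 to 8.06. Endothelial means were closer, at 9.13 to 9.19 and 9.25 to 9.41. The part of cell make-up in the age differences was not tested.

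Genes that passed as higher with age in both genotypes were Sdhb, Cyc1, Cox5b, Cox7a2l, Atp5a1 and Atp5g1. Cox7a2l passed narrowly in WT (0.31, limma adjusted p = 0.0498). Its other probe sets were at 0.03 and 0.28 in WT and at 0.25 and 0.42 in DN-MCU hearts. With only the groups compared, Atp5g1 passed in both genotypes, Cox7a2l only in DN-MCU hearts, and Sdhb, Cyc1, Cox5b and Atp5a1 only in WT hearts. Atp5g1, singled out after its values were seen, was at 14.38, 14.11 and 14.28 in WT neonates and 14.86, 15.03 and 14.94 in WT adults. It was at 14.18, 14.40 and 14.15 in DN-MCU neonates and 14.84, 14.81 and 15.11 in DN-MCU adults. Adults lay above neonates in both genotypes, by 0.68 in each (SE 0.14, limma adjusted p = 0.00241 in WT and 0.00258 in DN-MCU). Cyc1 was at 13.74, 13.34 and 13.65 in WT neonates and 13.52, 13.62 and 13.64 in DN-MCU neonates, all below all adult arrays. Its mean was 13.58 ± 0.21 in WT neonates and 14.17 ± 0.11 in WT adults (SD, n = 3 each), a rise of 0.59 (SE 0.15, limma adjusted p = 0.00781). In DN-MCU hearts the rise was 0.51 (adjusted p = 0.0178).

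On the probe sets used, Sdha, Uqcrc1, Uqcrfs1 and Uqcrq rose with age in WT hearts and did not pass in DN-MCU hearts. For Sdha another bright probe set passed in both, at 1.13 in WT and 0.60 in DN-MCU hearts (limma adjusted p = 8.2e-05 and 0.00491). Sdha was at 13.08, 12.76 and 13.10 in WT neonates and 12.99, 12.96 and 13.05 in DN-MCU neonates, so that the neonates of both genotypes overlapped. Its age difference was 0.61 in WT (SE 0.19, limma adjusted p = 0.0230) and 0.20 in DN-MCU hearts (adjusted p = 0.414). The DN-MCU value was 0.40 without DN-MCU adult 3 (adjusted p = 0.0510), and it passed in 4 of 17 alternatives, at 0.40 without WT adult 1 and DN-MCU adult 3 (0.0242), 0.38 with array weights (0.0478), 0.47 with array medians subtracted (0.0449) and 0.52 with probe sets averaged (0.0392). The WT call was lost without WT adult 2, without WT adult 3 and without WT neonate 2 (adjusted p of 0.0872, 0.0583 and 0.0904), in a range of 0.000154 to 0.0904 over 17 alternatives. For Uqcrfs1 the age difference was 0.48 in WT (SE 0.11, limma adjusted p = 0.00627), past the threshold under all 17 alternatives run, and 0.02 in DN-MCU hearts (adjusted p = 0.924). Uqcrc1, a core protein of complex III, had 0.52 and 0.35, and Uqcrq, the ubiquinone-binding accessory subunit, had 0.44 and 0.24. In DN-MCU hearts their limma adjusted p-values were 0.061 and 0.183, so that Uqcrc1 missed narrowly. The difference between the genotypes in these changes is the difference of effects given above, which passed for none of them. Atp5d and Atp5g2 passed as higher in DN-MCU hearts, at 0.44 and 0.48, and narrowly missed in WT, at 0.39 and 0.43 (limma adjusted p = 0.0667 and 0.0615), with differences of effects of 0.05 each. Sdhd passed as lower in DN-MCU hearts, at -0.35 (SE 0.11, limma adjusted p = 0.0217), where it was at 0.04 in WT. With array medians subtracted, the DN-MCU value of Sdhd was -0.07 (adjusted p = 0.692).

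**Figure D4:**
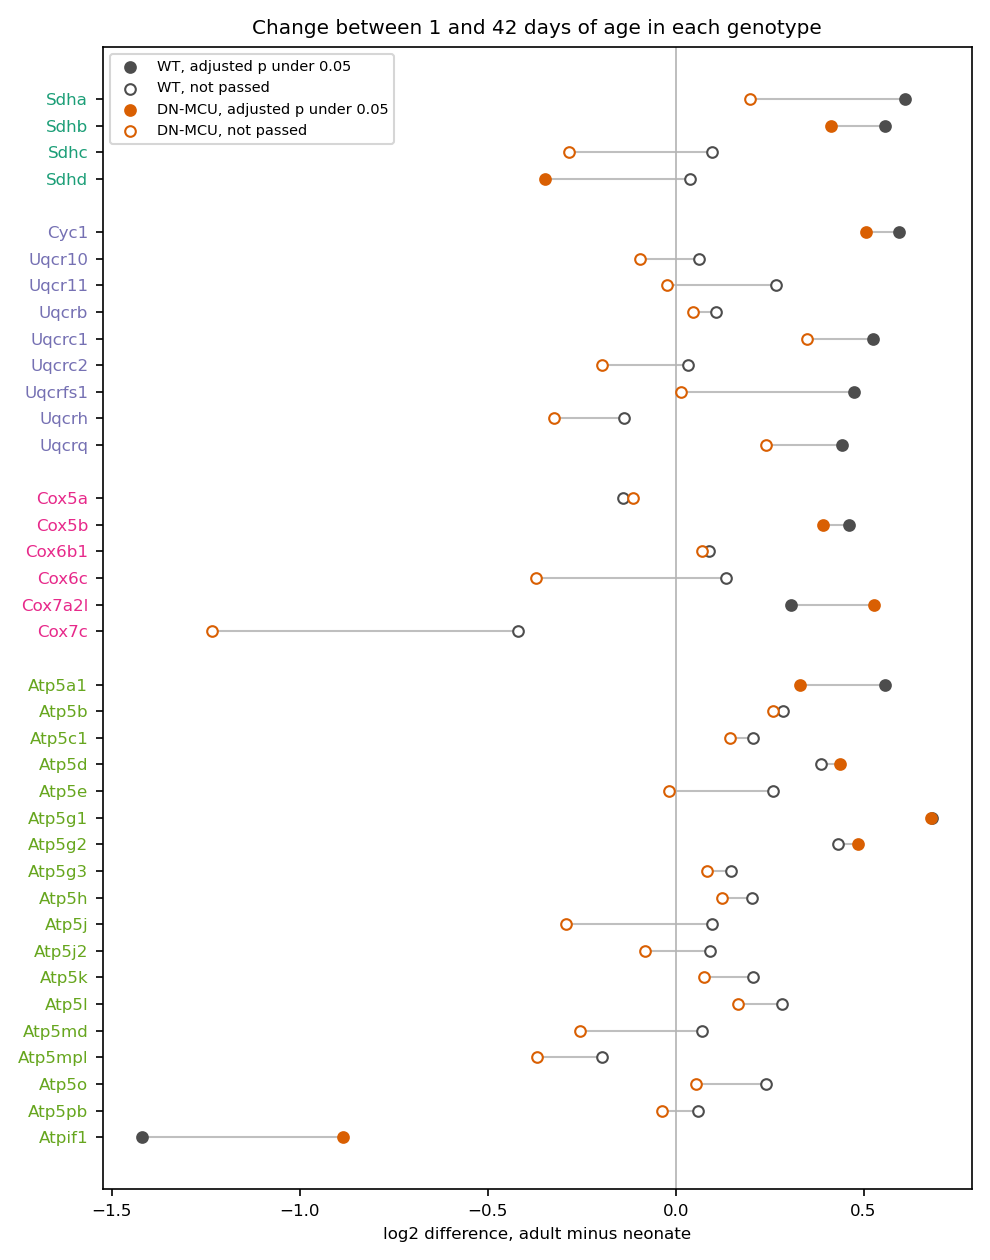
Difference between adult and neonatal hearts (log2, adult minus neonate) for 37 genes in WT (grey) and DN-MCU (orange) hearts, joined by a line for each gene. Filled points have a limma adjusted p under 0.05. Cox6b2, whose adult level is near the background, is left out. The orange point lies to the left of the grey one for most genes, and to its right for Atpif1.

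Atpif1 fell with age in both genotypes. The fall of Atpif1 in WT hearts was -1.42 (SE 0.14, limma adjusted p = 1.8e-05), a 2.67-fold change, and in DN-MCU hearts -0.88 (adjusted p = 0.00049), a 1.85-fold change. Cox6b2 was at 6.72, 6.75 and 6.42 in WT neonates and 6.70, 6.68 and 6.04 in DN-MCU neonates, well above all adult arrays. With adult arrays raised to the filter level where they lay below it, neonates were at least 9.69-fold higher in WT (means of 6.63 and 2.62 as measured) and at least 5.88-fold higher in DN-MCU hearts (6.47 and 3.77). Because the gene passed the filter through its neonatal signal, its difference between ages had to be there, and it counts among the 2 and 3 lower genes above as a description. In 32 of the 38 genes the age difference was less positive, or more negative, in DN-MCU than in WT hearts. This is the same count as that of the differences of effects below 0, because it is the same quantity.

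For 24 of the genes, 32 further probe sets were tested. In adults 28 of the 32 had the sign of the probe set used for the DN-MCU difference, and 19 of the 22 with a mean above 10. In neonates this was 22 of 32, and for the age differences it was 28 of 32 in WT and 23 of 32 in DN-MCU hearts.

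Genes that work with these complexes were taken from lists and give the surroundings of the 38 in adult hearts. The lists were chosen with earlier results of these data known. Over all genes tested in adults, 3.41% passed as higher and 1.69% as lower. Of 32 tested complex I subunits, 0 passed (5, or 15.6%, at an unadjusted p under 0.05, against 19.5% of all genes) and 31 lay below 0, with a median of -0.19. Among 7 cytochrome oxidase genes with tissue isoforms, Cox6a1 and Cox8a, the forms known from liver and other tissues, rose by 0.73 and 1.10 (limma adjusted p = 0.0111 and 0.0101), and the other 5 did not pass. Of 16 genes for electron carriers and coenzyme Q synthesis, 15 lay below 0, with a median of -0.40, and 2 passed as lower. These were Coq10a, a coenzyme Q binding protein, at -0.96 (limma adjusted p = 0.0290), and Etfdh, which delivers electrons from fatty acid oxidation to ubiquinone, at -0.78 (adjusted p = 0.0330). Cycs, cytochrome c, was at -0.31 (adjusted p = 0.258).

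Assembly factors gave few calls. The backgrounds for this and the following lists are again 3.41% of all genes as higher and 1.69% as lower. Of 17 for complex IV, 1 passed as higher, Cox19, a copper-handling protein, at 0.91 (limma adjusted p = 0.0233). Of 10 for complexes II and III and 4 for complex V, 0 passed (4 and 1 at an unadjusted p under 0.05, or 40% and 25%, against 19.5% of all genes), with medians of -0.31 and -0.25. Of 4 carriers of adenine nucleotides and phosphate, Slc25a5, an adenine nucleotide translocase, rose by 0.45 (limma adjusted p = 0.0449), while the main heart form Slc25a4 was at -0.11 and the phosphate carrier Slc25a3 at -0.09. Of 17 regulators of respiratory gene expression 0 passed (5, or 29.4%, at an unadjusted p under 0.05), with a median of -0.25. Ppargc1a, the coactivator of mitochondrial biogenesis, was 11.95 ± 0.45 in WT and 11.09 ± 0.48 in DN-MCU adults (SD, n = 3 each), a difference of -0.86 (SE 0.26, limma adjusted p = 0.0962), and Esrra was at 0.18. For comparison, 11 of 12 markers of the integrated stress response passed as higher in the same adult hearts, with a median difference of 3.96.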

How the data were processed

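Per the labels' protocols, 500 ng of total RNA per heart sample was turned into biotinylated cRNA for Affymetrix 3′ expression arrays. The authors deposited 1 table of normalized log2 signals. That they are log2 was judged from their range. Their normalization was not given in the sources used here, although the submitters' processing notes mention Partek without a version. Probe sets were named through the platform's annotation: 34945 of 45101 had 1 gene, 932 several and 9160 none, beside 64 control probe sets, which were removed. Probe sets with several genes or none were not named. All 40 members were matched to RefSeq by gene ID.

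A probe set was tested if the third highest of its 12 values exceeded the median of all values (log2 3.35), which kept 24176. Group means of all 4 groups entered 1 limma fit (limma 3.58.1, R 4.3.3) with empirical Bayes variances. In each of 5 comparisons p-values were adjusted by Benjamini-Hochberg over all tested probe sets, and a result passed at an adjusted p under 0.05. The labels call the arrays biological replicates. P-values measure the spread between them, taken as 1 value per probe set shared by the 4 groups. The groups were not equally spread. The median SD over all genes was 0.21 in WT and 0.40 in DN-MCU adults, and 0.13 in WT and 0.14 in DN-MCU neonates. An SE or p-value for adults is therefore not based on adults alone. SDs are over arrays, and SEs come from the fit. The fit was first run on simulated data in which each probe set had the same spread in all groups. The unequal spread of the real groups was therefore not covered by it. Plots were made with matplotlib 3.10.9.

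Values on every array are printed for genes that passed a DN-MCU comparison, for each complex's highest and lowest adult difference and largest WT age difference, and for Atpif1, Cyc1 and the Sdh genes. Of each gene list up to 4 passing genes are named, and Cycs, Slc25a4, Slc25a3, Ppargc1a and Esrra in every case. Other genes named with values were chosen after their values were seen. The members and lists were chosen with earlier results of these data known.

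As a check of pairing, deviations from the group mean were correlated between arrays with the same replicate number. Same-numbered neonates correlated at 0.133, 0.223 and 0.283 and were treated as possibly paired. The meaning of the numbers is not labelled, so this check does not establish pairing. Arrays with different numbers were not correlated for comparison. The main fit used no pairing, and the replicate number entered only in the alternatives with a replicate block. If the neonates were paired, the main p-values that use them ignore it. Same-numbered adults correlated at -0.381, 0.41 and -0.428, and the meaning of their numbers is not labelled either. Alternatives were the groups compared alone, no filter or a stricter one (log2 7.25), quantile normalization, centring of each array on its median, averaged probe sets, leaving out cross-matching probe sets, array weights, a trended robust spread, a replicate block, each array left out, and, added after seeing the data, leaving out WT adult 1 and DN-MCU adult 3.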

Additional observations from a re-analysis of the deposited data

Results flagged for a closer look

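Atp5md, a small accessory subunit of the ATP synthase, had differences of opposite sign at the 2 ages, neither of which passed. It was at 13.65, 13.63 and 13.66 in WT adults and 13.42, 13.53 and 13.49 in DN-MCU adults, all of them lower, and at 13.57, 13.64 and 13.52 in WT neonates and 13.76, 13.74 and 13.69 in DN-MCU neonates, all of them higher. The adult difference was -0.17 and the neonatal one 0.16 (SE 0.11 each, limma adjusted p = 0.469 and 0.9999). The difference between these effects was -0.32 (SE 0.15), and its test did not pass (limma adjusted p = 0.562, 3 arrays in each of 4 groups).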

How the results depend on the processing

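The adult count of 1 passing gene of 38 was 0 with only the groups compared, with array medians subtracted, with the replicate block and with the replicate block in neonates only. It was 2 with quantile normalization, the stricter filter, averaged probe sets and array weights, 3 with no filter and with a trended robust spread, and 5 without WT adult 1 and DN-MCU adult 3. With single arrays left out it ranged from 0 (without WT adult 2 or WT adult 3) to 4 (without DN-MCU adult 3), and was 2 without DN-MCU adult 1 or 2. Without DN-MCU adult 1 these were Atpif1 and Cox6b2, and the WT adults of Cox6b2 lay under the filter level. The adult median of -0.10 ranged from -0.16 (without DN-MCU adult 3) to -0.075 with single arrays left out. In neonates 0 passed under all alternatives run. For the difference of effects, Sdhd made the count 1 with no filter, and the median of -0.15 was -0.094 with array medians subtracted, -0.21 with array weights and -0.18 to -0.10 with single arrays left out. It was not run on the groups compared alone, since it uses all 4.

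The count of 12 for WT hearts between ages was 20 with array weights and with a trended robust spread, 19 without WT adult 1 and DN-MCU adult 3, and 8 to 11 with single arrays left out. The median of 0.20 was 0.15 with quantile normalization, 0.42 with array medians subtracted, 0.15 without cross-matching probe sets and 0.17 to 0.22 with single arrays left out. The DN-MCU count of 11 was 4 with only the groups compared, 17 with a trended robust spread, and 4 to 12 with single arrays left out (4, 7 and 6 without DN-MCU neonates 1, 2 and 3). The median of 0.05 was 0.33 with array medians subtracted, 0.0087 with quantile normalization, 0.017 with array weights, and with single arrays left out 0.0081 (without DN-MCU adult 3) to 0.085 (without DN-MCU adult 1). The cause was not tested. The replicate block moved no other count by over 1.5 times, and no named gene that passed changed sign. Probe sets near the filter level and those near the top of the scale are measured least well.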
